A study of Mus musculus with 96 samples.

Results

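The report concerns the islets of chow-fed mice over 24 weeks, which make up 24 of the 96 libraries of the series. They are the islet libraries of every mouse on the chow diet (CD), with 4 mice at each of weeks 4, 8, 12, 16, 20 and 24 on the diet, and they were chosen by tissue, diet and week as the sample labels give them. The mice were C57BL/6N males bought at 4 weeks of age, and CD was LabDiet 5001 with 13.5% fat. The other libraries are the livers of these mice and the islets and livers of mice on a high-fat diet (HFD, Research Diets D12492, 60% fat), and of these only the 24 HFD islet libraries were used here. Islets were freed with collagenase P, picked by hand and kept as whole islets, so that every cell type of the islet and any attached exocrine tissue is in the RNA. The question was which genes rise or fall as CD mice grow older, with week 24 against week 4 as end points. Mice of different weeks are different animals and each week was collected on its own occasion, so that age and collection cannot be told apart. The p-values of comparisons between weeks rest on the spread between the mice of a week. Those of a straight line over the weeks also take in how far the week means lay from that line.

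Islets are small groups of endocrine cells in the exocrine pancreas, built mostly of beta cells that make insulin, with alpha cells (glucagon), delta cells (somatostatin) and PP cells (pancreatic polypeptide) around them and a dense net of capillaries on a basement membrane. Beta cells of young rodents still divide and this replication declines with age, while pericytes, stellate cells and endothelial cells lay down the collagens and laminins on which the endocrine cells rest. In whole-islet RNA, fewer cells of a type and less RNA per cell cannot be told apart.

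Part of a proliferation list and most of a list of collagens and matrix proteins were lower in later weeks. Broader sets of the cell cycle and of the matrix and its receptors had median changes close to that of all genes. The transcripts of the non-beta hormones fell while those of insulin gave no call. On a straight line over the weeks 284 genes rose and 236 fell. Barhl1, Nmnat2 and Bmpr1b, which rose, had the lowest adjusted p-values by limma.

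The promoters of 4 replication and mitosis genes whose transcripts fell are shown first, because the list they belong to shares a letter pattern. Each line gives the 100 bases before the transcription start, 5′ to 3′ on the strand of the gene, from RefSeq annotation of GRCm38.p6, and capitals mark CCAAT (or its complement ATTGG) and TTTGAA (or TTCAAA). Cdc20, the activator of the anaphase-promoting complex, lies on the minus strand with this stretch at chr4:118437344-118437443. Mcm5 (plus strand, chr8:75109409-75109508) and Mcm6 (minus strand, chr1:128359706-128359805) encode subunits of the replicative helicase, and Rrm1 (plus strand, chr7:102441595-102441694) the large subunit of ribonucleotide reductase.
Cdc20: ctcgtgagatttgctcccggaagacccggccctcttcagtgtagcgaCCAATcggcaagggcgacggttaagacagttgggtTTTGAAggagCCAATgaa
Mcm5: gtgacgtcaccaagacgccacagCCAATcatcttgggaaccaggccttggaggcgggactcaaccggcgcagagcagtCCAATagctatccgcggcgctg
Mcm6: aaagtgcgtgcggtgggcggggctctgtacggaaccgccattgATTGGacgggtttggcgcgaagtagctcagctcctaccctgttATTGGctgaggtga
Rrm1: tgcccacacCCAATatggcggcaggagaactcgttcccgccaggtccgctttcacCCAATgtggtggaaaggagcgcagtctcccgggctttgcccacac
Each of the 4 stretches holds CCAAT on either strand 2 times, and they were picked for that. The same stretch of Cenpa and of Pcna, 2 more falling genes of the list, holds it 1 time and that of Mcm2 holds it 0 times. Over the 250 bases before the start, read on both strands, CCAAT was present in 26 of the 33 promoters of the proliferation list (78.8%, for 30 of its 38 tested genes), in 6 of 17 of the collagen and matrix list (35.3%) in 84 of 224 of all falling genes (37.5%) and in 4381 of 12535 promoters of all tested genes. TTTGAA was present in 27.3%, 29.4%, 14.3% and 10.4% of the same sets. A match is a description of the letters, and binding was not measured.

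The libraries carried the marks of whole islets, and some weeks stood apart. Ins1 and Ins2 took between 53.7% and 70.8% of the summed FPKM (a level scaled by transcript length and library total, as the authors deposited it), and between 11165 and 11941 genes reached 1 FPKM in a library. Insulin had the lowest share at week 12 (57.0% ± 2.4, SD, n = 4). The summed FPKM of the acinar markers, secreted enzymes of the exocrine pancreas, had week means, from the first week to the last, of 25800, 26250, 119600, 64000, 16410 and 50380. The highest single library was mouse CD304 of week 12, at 188200. Long transcripts (above 4854 bases) were low against short ones (below 2677 bases) at weeks 4 and 12, with median differences of -0.12 and -0.28 on the log2 scale, against 0.09 to 0.15 at the other weeks. HFD islets gave -0.10 and -0.32 at weeks 4 and 12. Between weeks 4 and 24 the share of insulin differed by -2.46 percentage points (exact permutation p = 0.371, adjusted over 3 tests 0.486) and the acinar sum by 24580 FPKM (exact p = 0.0857, adjusted 0.257), where the smallest p that 4 against 4 allows is 0.0286.

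**Figure D1:**
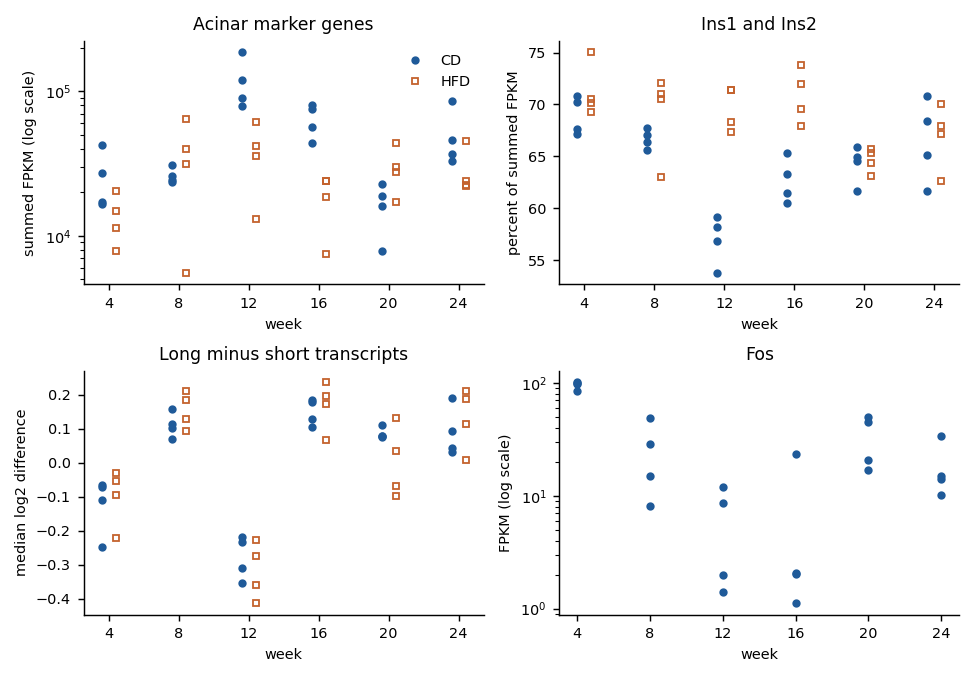
Library measures by week. Each point is 1 mouse (filled circles CD, open squares HFD): summed FPKM of the acinar markers (log axis), the share of Ins1 and Ins2 in the summed FPKM in percent, the median log2 difference between long and short transcripts, and Fos in FPKM (log axis, CD only). The acinar sum was highest at week 12 in CD, and the length measure was lowest at week 12 and negative at week 4 in both diets.

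A straight line over the weeks was fitted to log2(FPKM + 1) of each of 12178 genes, and a gene was called when its Benjamini-Hochberg adjusted p was under 0.05 (limma). The fitted change is the slope times the 20 weeks between the first and last collection, and it understates the change of genes near 0 FPKM. The line rose for 284 genes (2.33% of those tested) and fell for 236 (1.94%). Week 24 against week 4 called 2192 genes higher (18%) and 1778 lower (14.6%), and all but 15 of the 520 genes of the line were called in the same direction there. Levels of most genes did not follow a line: 8902 genes (73.1%) departed from it, among them 292 of the 520. Steps between neighbouring weeks called 22% of genes higher and 9.7% lower from week 4 to 8, 12.2% and 38.1% from week 8 to 12, 35.6% and 17.9% from week 12 to 16, 30.6% and 9.56% from week 16 to 20, and 1.12% and 20.3% from week 20 to 24. The median of all genes moved by -0.12 from week 8 to 12 and from week 20 to 24, and by 0.01 and 0.00 with median ratio scaling of the libraries, which called 3498 genes higher and 3565 lower in the former step and 493 and 496 in the latter.

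The number of genes on a line depended on which mice and weeks were in it. Without mouse CD101, CD103, CD104, CD106, CD505, CD601 or CD606 between 136 and 175 genes rose, and without mouse CD304 there were 442. Between 124 and 157 fell without mouse CD103, CD104, CD106, CD601, CD605, CD606 or CD608. Leaving out week 4 gave 88 rising and 51 falling genes, leaving out week 24 gave 70 and 25, and leaving out week 12 gave 861 rising genes. Without week 8 there were 1802 and 625, without week 16 171 rising, and without week 20 164 and 566. The split between directions depended on scaling, with 476 rising and 797 falling under median ratio scaling, 1441 and 109 with the acinar markers removed, and 72 and 39 with Ins1 and Ins2 removed. With weeks 4 and 12 both left out, 173 rose (1.42%) and 243 fell (2%), and of the 520 genes 3 changed sign and 134 were called again. With the 6 week means as 6 samples no gene passed by limma. At an unadjusted p under 0.05 412 of 12178 did, a smaller share than the 0.05 that pass by chance without any trend. Of the 520 genes, 23 moved the same way at every one of the 5 steps of week means, and these were named after their values were seen. Barhl1, Bmpr1b, Pigr, Fut1, Adm2, Clip4, Cpne4 and Igfbp3 were among the 15 that rose, and Sparc, Col3a1, Col6a2, Col18a1, Cd34 and Vrk1 among the 8 that fell.

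Part of the genes of cell division fell. Of 38 tested genes of the proliferation list (50 listed, 12 below the filter), 12 fell on the line and 0 rose, 36 had a negative slope, and the median fitted change was -0.59 against 0.06 over all tested genes. The filter asked for 1 FPKM in 4 libraries, as many as a week has mice, so a gene high in 1 week alone could enter. For a gene near 1 FPKM the direction could then follow from the week that let it in. Without the filter 9 of 50 fell on the line (41 at an unadjusted p under 0.05), and at a mean of at least 5 FPKM 2 of 5 (3). The list was chosen with earlier results of these data known, so the shares below are no independent yardstick. Over all tested genes 1.94% fell on the line and 14.6% were lower in week 24 against week 4. In that comparison 29 of the 38 were lower and 0 higher, and in 7 of them every mouse of week 24 was below every mouse of week 4, as 14.2% of all genes were. Broader sets of the KEGG database, formed from the pathway names that the authors deposited with each gene, gave smaller shares. Of 125 tested genes of its cell cycle set, 1 rose and 10 fell on the line (median -0.02), with 16 higher and 26 lower in week 24 against week 4. Of 54 genes of its DNA replication set, 0 rose (3 at an unadjusted p under 0.05) and 8 fell (median -0.07), with 3 higher and 15 lower between the end points. The summed FPKM of the proliferation list had week means of 178.5 ± 89.3 (SD, n = 4), 129.4 ± 12.8 and 76.5 ± 5.3 in the first 3 collections and between 83.5 and 102.8 after that. At week 4 the 4 mice spread from 92.4 to 302.5, with mouse CD106 the highest, and without it the mean was 137.1 ± 41.2. The mice of week 24 lay between 72.4 and 107.6, so that the sums of the end points overlapped.

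Pbk, a kinase of mitotic cells (plus strand, chr14:65805911-65817822 in GRCm38), had the largest fitted fall of the 236 falling genes. It stood at 1.33, 3.86, 6.38 and 14.07 FPKM in the 4 mice of week 4, at 3, 4.96, 3.3 and 2.52 at week 8, and at 0.37, 0.28, 1.03 and 0.13 at week 24. The mice of weeks 4 and 24 did not overlap, and mouse CD106 of week 4 stood far above the others. Its means of weeks 12, 16 and 20 were 0.43 ± 0.13, 1.14 ± 1.08 and 1.39 ± 1.16 FPKM, and the fitted change was -1.84 (SE 0.44, adjusted p = 0.0167). Stmn1, which destabilizes microtubules in dividing cells, was at 7.19, 18.09, 23.28 and 49.97 FPKM at week 4 and at 3.85, 4.52, 6.95 and 3.38 at week 24. The weeks did not overlap here either, and mouse CD106 was again the highest. Its fitted change was -1.59 (SE 0.38, adjusted p = 0.0171). Cdc20 fell from a mean of 3.90 ± 3.38 to 0.55 ± 0.40 FPKM, and its fitted change was -1.17 (adjusted p = 0.0433). That call was lost in 19 of its 40 alternatives.

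E2f1, a transcription factor that turns on S-phase genes, varied less between mice. It was at 8.85, 8.31, 7.95 and 10.02 FPKM at week 4, at 6.84, 7.04, 7.13 and 6.32 at week 8, and at 4, 4.79, 6.41 and 3.61 at week 24. The 4 mice of week 4 lay above those of week 8, and these lay above 3 of the 4 of week 24. Its fitted change was -0.71 (SE 0.13, adjusted p = 0.00283), with its low at week 16 (4.36 ± 0.41). E2f2 fell by 0.50 (adjusted p = 0.00716). Of the helicase genes, Mcm2 fell by 0.56, Mcm5 by 0.64 and Mcm6 by 0.46 (adjusted p = 0.00914, 0.0389 and 0.0134). Rrm1 fell by 0.40 and Pcna, the sliding clamp of DNA polymerase, by 0.34 (adjusted p = 0.0179 and 0.0456), from 27.7 ± 5.0 to 20.2 ± 2.0 FPKM. Tpx2 and Cenpa, a spindle factor and the centromeric histone, fell by 0.97 and 0.94 (adjusted p = 0.0411 and 0.0244). Mki67, the common marker of cycling cells, averaged 2.40 ± 1.84, 1.96 ± 0.55 and 0.17 ± 0.01 FPKM in the first 3 collections and 0.57 ± 0.37 in the last, and did not pass on the line (adjusted p = 0.0858) while week 24 against week 4 gave an adjusted p of 0.0207. Levels of most of these genes were a few FPKM or less, where 2 deposited decimals carry few digits.

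The proliferation calls leaned on both ends of the series. Without week 4 0 of 38 fell by limma (11 at an unadjusted p under 0.05), without week 24 there were 2, without week 16 there were 7, and without week 12 there were 28. Leaving out mouse CD103, CD104, CD106 or CD601 gave 7, and leaving out CD101 or CD507 gave 18. With Ins1 and Ins2 removed and the rest rescaled, 0 fell on the line (31 of 40 at an unadjusted p under 0.05) and 30 in week 24 against week 4. Median ratio scaling gave 23 on the line, and the 8 libraries of weeks 4 and 24 by themselves gave 9 of 38.

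Among 23 tested genes that open or brake the cell cycle, 1 rose and 2 fell on the line, against 2.33% and 1.94% of all genes. Ccnd1, a D cyclin of G1, fell from 45.4 ± 2.7 FPKM at week 4 and 53.2 ± 7.4 at week 8 to 29.4 ± 2.1 at week 24 (fitted change -0.60, SE 0.13, adjusted p = 0.00704). At week 24 its 4 mice were at 30.18, 26.61, 29.15 and 31.47 FPKM, below each of the other 20 libraries. Igf2bp2, an mRNA-binding protein of growing tissues, was at 1.18 ± 0.19 and 1.18 ± 0.05 FPKM at weeks 4 and 8 and between 0.39 and 0.60 in the means of later weeks (fitted change -0.64, SE 0.11, adjusted p = 0.0012). Bmi1, a Polycomb protein that represses the cell cycle inhibitor gene Cdkn2a, rose by 0.78 (SE 0.14, adjusted p = 0.00156). Its means were 17.0, 20.9, 16.5, 30.7, 26.2 and 28.9 FPKM in order of week, so that every mouse of weeks 16 to 24 was above every mouse of weeks 4 to 12, and it departed from a line (adjusted p = 2.76e-07). Cdkn2a itself was at 0.675 ± 0.303 FPKM at week 4 and 0.743 ± 0.195 at week 24 (fitted change 0.19, adjusted p = 0.3). The call of Ccnd1 was lost with Ins1 and Ins2 removed (adjusted p = 0.122) and without week 24 (0.238), and those of Igf2bp2 and Bmi1 without week 4 (0.054 and 0.0576). In week 24 against week 4, 5 of the 23 were higher and 6 lower, against 18% and 14.6% of all genes. Among them Cdkn1c, Cdkn2c, Cdkn2d and Men1 were lower and Rb1 and Suz12 higher, without a call on the line.

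Most tested genes of a list of collagens and matrix proteins fell. Of 21 tested genes of the collagen and matrix list (25 listed, 4 below the filter), 15 fell and 0 rose on the line, 17 were lower in week 24 against week 4, and the median fitted change was -0.61. Over all genes the shares were 1.94% on the line and 14.6% between the end points. This list, too, was chosen with earlier results of these data known, so the comparison is not independent of them. In 15 of the 21 no mouse of week 24 reached the lowest mouse of week 4, as in 14.2% of all genes. The wider KEGG set of ECM-receptor interaction (209 listed entries, of which more than 100 passed the filter) had 5 genes that rose and 11 that fell on the line (median 0.06), and 13 higher and 26 lower in week 24 against week 4. The summed FPKM of all 25 listed genes went from 199.0 ± 37.9 through 150.9 ± 32.2, 127.3 ± 24.7, 128.1 ± 24.3 and 120.8 ± 11.1 to 100.5 ± 7.6 over the 6 weeks of collection.

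Col1a1, the main chain of fibrillar collagen I (plus strand, chr11:94935912-94984164), was at 3.49, 9.96, 5.01 and 7.07 FPKM at week 4, at 4.07, 4.93, 1.62 and 2.96 at week 8, and at 1.26, 0.72, 0.98 and 0.8 at week 24. Every mouse of week 24 was below every mouse of weeks 4 and 8, while weeks 12 to 20 lay below week 4 and overlapped with weeks 8 and 24. The fitted change was -1.64 (SE 0.29, adjusted p = 0.00213). Col3a1, the fibrillar collagen that accompanies it, was at 4.39, 15.79, 9.14 and 12.65 FPKM at week 4 and at 2.13, 1.55, 1.6 and 2.14 at week 24, and its week means fell at each step (fitted change -1.71, SE 0.31, adjusted p = 0.00234). Col1a2 fell by 1.38 (adjusted p = 0.00234), and Col6a1, Col6a2 and Col6a3, chains of microfibrillar collagen, by 0.94, 0.85 and 0.54.

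Sparc, a matrix protein that binds collagen (minus strand, chr11:55394159-55420080), had the lowest adjusted p of the list. It was at 36.32, 58.4, 48.42 and 51.99 FPKM at week 4, passed through means of 34.7 ± 7.5, 31.3 ± 5.2, 28.8 ± 3.9 and 24.1 ± 2.5, and ended at 24.56, 22.02, 22.07 and 20.92. Each week mean was below the one before it, and the spread between mice narrowed with the level. The fitted change was -0.99 (SE 0.13, adjusted p = 7.54e-05). Col4a1 and Col4a2, the chains of basement membrane collagen IV, fell by 0.49 and 0.77 (adjusted p = 0.0377 and 0.000705), and Lamb1 and Lama4, laminin chains, by 0.42 and 0.32 (adjusted p = 0.0234 and 0.0413). Col4a2 went from 20.2 ± 2.0 FPKM at week 4 to 14.2 ± 2.7 at week 8 and 9.94 ± 1.14 at week 24. Mmp2, a collagenase of mesenchymal cells, fell by 0.70 (adjusted p = 0.0402).

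**Figure D2:**
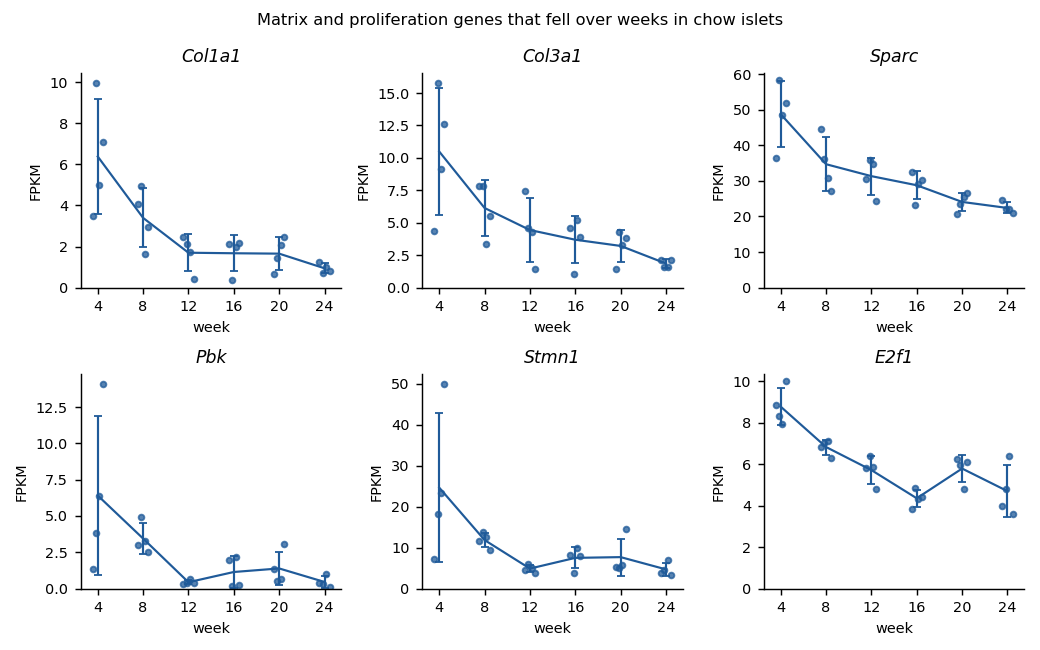
Matrix genes (Col1a1, Col3a1, Sparc) and proliferation genes (Pbk, Stmn1, E2f1) in CD islets, in FPKM by week on diet. Points are single mice, lines join week means, and bars are SD (n = 4). In all 6 panels the 4 mice of week 24 lie below the 4 mice of week 4, and Stmn1 and Pbk show the wide spread at week 4 that mouse CD106 makes.

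Stellate and endothelial cells lay down matrix, and some of their markers were called as well. On the line 2.33% of all genes rose and 1.94% fell. Of 8 tested stellate cell and fibroblast markers, Acta2 (smooth muscle actin) and Pdgfrb (a pericyte receptor) fell, by 0.72 and 0.43 (adjusted p = 0.0179 and 0.0167), and their summed level over the list was 57.7 ± 11.4 FPKM at week 4 and 46.7 ± 0.9 at week 24, with a high of 67.2 ± 13.0 at week 16. The median fitted change of these markers was -0.44, and 7 of 8 were negative. Of 10 endothelial markers, Cdh5 and Emcn fell by 0.35 each and Esm1 rose by 0.46 (adjusted p = 0.0372, 0.0271 and 0.0229), and the list summed to 261.3 ± 8.7 and 237.7 ± 7.6 FPKM at weeks 4 and 24. Their median was -0.17, with 9 of 10 negative, and no test was run between these lists and the matrix genes. Whether fewer such cells lay in the later islets was not tested. The matrix calls, too, leaned on both ends of the series. Without week 4 only Sparc fell (12 of 21 at an unadjusted p under 0.05), without week 24 there were 3, and without weeks 4 and 12 there were 4 (Col1a1, Col3a1, Col6a3 and Sparc). Leaving out mouse CD103, CD104 or CD608 gave 9, and removing Ins1 and Ins2 gave 7. Without the filter on low FPKM 16 of 25 fell on the line, and at a mean of at least 5 FPKM 3 of 8 (7 at an unadjusted p under 0.05).

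Transcripts of alpha, delta and PP cells fell on the line, and those of insulin did not pass. Of 10 alpha cell markers 3 fell (Gcg and Pcsk2 among them), of 4 delta cell markers 2 (Sst and Rbp4), and of 3 PP and epsilon cell markers 1 (Ppy), with 0 rising in these lists, where 1.94% of all genes fell. Of 13 beta cell markers 1 fell (Pcsk1) and 0 rose (0 rising at an unadjusted p under 0.05 as well).

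Ppy, the hormone of PP cells, was at 6034, 4703, 4798 and 3140 FPKM at week 4 and at 2510, 2178, 1578 and 2080 at week 24. All mice of week 24 were below those of week 4, and the means between lay at 3226 ± 74, 3000 ± 354, 2488 ± 338 and 2867 ± 387. The fitted change was -0.93 (SE 0.15, adjusted p = 0.000743). Gcg, which encodes glucagon, had week means of 14570 ± 456, 11480 ± 907, 12660 ± 604, 11070 ± 1991, 9169 ± 642 and 10210 ± 2592 FPKM (fitted change -0.56, SE 0.13, adjusted p = 0.0144). Each of the 20 later mice was below the lowest mouse of week 4, at 14054 FPKM, and the 4 of week 24 ranged from 6678 to 12542. Sst, which encodes somatostatin, averaged 4489 ± 248 FPKM at week 4 and 2520 ± 310 at week 24, with 3794 ± 387 at week 20 between the low weeks 16 and 24 (fitted change -0.62, SE 0.15, adjusted p = 0.0165, departure from a line 2.43e-06).

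The hormone calls leaned on week 4. Without week 4 the adjusted p of the line was 0.251 for Gcg, 0.279 for Sst and 0.0515 for Ppy, and for Gcg it was 0.06 without week 20. Without mouse CD606 it was 0.0502 for Sst. With weeks 4 and 12 left out Ppy was still called (0.049), while Gcg (0.364) and Sst (0.409) were not. For Sst the adjusted p was 0.249 without week 24, 0.0785 after correction for transcript length and 0.0891 with Ins1 and Ins2 removed, and for Gcg it was 0.0613 with the acinar markers removed.

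Ins1 averaged 210500 ± 17910 FPKM at week 4, 161600 ± 2830 at week 12 and 197400 ± 26090 at week 24 (fitted change -0.12, SE 0.11, adjusted p = 0.482). Ins2 averaged 549900 ± 34310, 417200 ± 17640 and 491100 ± 63970 FPKM at these weeks (fitted change -0.17, SE 0.10, adjusted p = 0.267). Both had their lowest mean at week 12 and departed from a line (adjusted p = 0.000409 and 0.0015). The sign of these changes was not fixed: the line of Ins1 turned to 0.01 with the acinar markers removed and to 0.13 without week 4, and that of Ins2 to 0.05 without week 4.

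**Figure D3:**
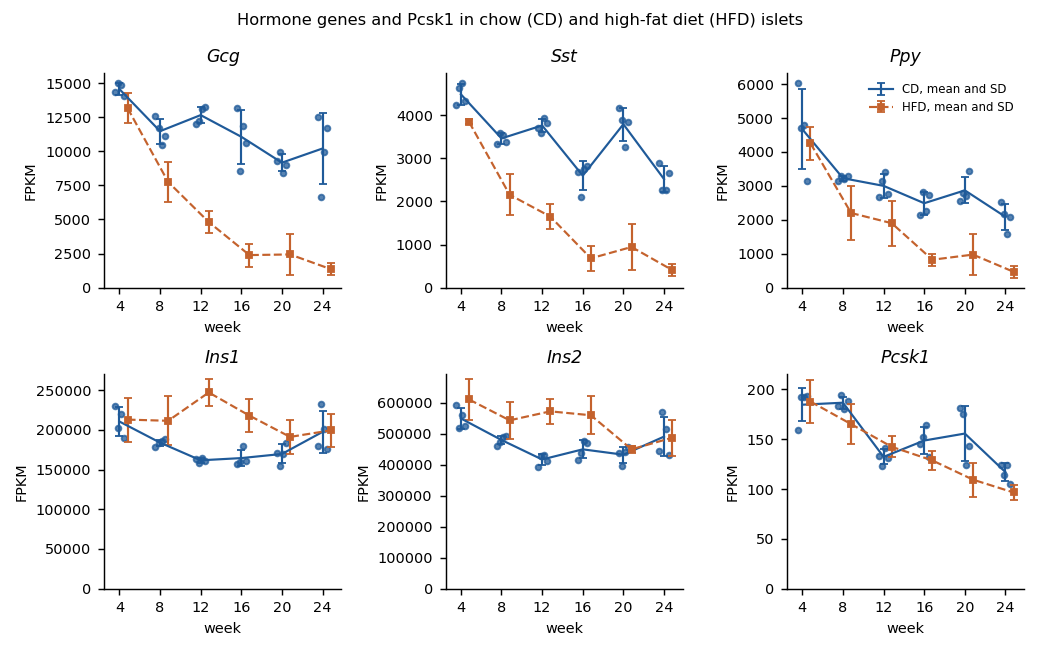
Gcg, Sst, Ppy, Ins1, Ins2 and Pcsk1 in FPKM by week on diet. Filled points are CD mice, solid lines and bars the CD mean and SD, and dashed lines with squares the mean and SD of HFD islets (n = 4 each). Gcg, Sst and Ppy ended at 10210, 2520 and 2086 FPKM in CD and at 1358, 409 and 465 FPKM in HFD.

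The machinery that makes insulin was in part lower. Of 19 genes of insulin synthesis and processing, 3 fell on the line and 10 in week 24 against week 4, against 1.94% and 14.6% of all genes, and 0 rose in either (0 rising at an unadjusted p under 0.05 as well). Pcsk1, the convertase that cuts proinsulin, was at 159.73, 192.84, 192.5 and 193.66 FPKM at week 4 and at 124.14, 114.33, 124.13 and 105.08 at week 24. The weeks did not overlap, and the middle weeks ranged between 122.77 and 193.94. The fitted change was -0.56 (SE 0.12, adjusted p = 0.00661), and without week 4 the adjusted p was 0.0958. Pcsk2, the convertase of proglucagon and proinsulin, fell by 0.44 (adjusted p = 0.0139), and Spcs1, of the signal peptidase, by 0.32 (adjusted p = 0.0458). Cpe, Chga, Chgb, Scg5, Pcsk1n, P4hb and Ero1b were lower in week 24 against week 4 only. Of 18 glucose-sensing genes 0 passed on the line (2 higher and 8 lower at an unadjusted p under 0.05) and 8 were lower in week 24 against week 4. Slc2a2, the glucose transporter of mouse beta cells, was at 288.6 ± 27.8 and 173.6 ± 40.9 FPKM at the end points (adjusted p = 0.00589, on the line 0.0846).

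Beta cell transcription factors gave few calls on the line, where 2.33% of all genes rose and 1.94% fell. Of 21, Esrrg, an orphan nuclear receptor linked to oxidative metabolism in mature beta cells, rose, and 0 fell (1 at an unadjusted p under 0.05). It was at 2.47, 2.59, 2.29 and 2.14 FPKM at week 4 and at 4.11, 3.99, 4.01 and 2.97 at week 24, without overlap (fitted change 0.55, SE 0.11, adjusted p = 0.00566, without week 24 0.114). Mafa averaged 127.4 ± 7.2, 57.4 ± 11.5 and 116.9 ± 22.5 FPKM at weeks 4, 12 and 24, and Nkx6-1 183.2 ± 5.5, 92.0 ± 12.3 and 159.0 ± 22.0. Both moved down and up again with no call on the line (adjusted p = 0.821 and 0.882). In week 24 against week 4, 5 of the 21 were higher and 2 lower, against 18% and 14.6% of all genes. Pdx1 was among the lower, and Neurod1, Isl1, Rfx6 and Mlxipl were among the higher.

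Barhl1, a homeobox transcription factor best known from the developing nervous system and inner ear, had the lowest adjusted p of all tested genes (minus strand of chromosome 2, chr2:28907680-28918433 in GRCm38). Its level was 0.84, 0.5, 0.6 and 0.62 FPKM in the mice of week 4, 1.08, 1.3, 1.33 and 1.59 at week 12, 3.22, 3.42, 3.44 and 3.48 at week 20, and 3.98, 4.24, 3.68 and 2.93 at week 24. Every week mean was above the one before it, and no mouse of weeks 20 and 24 overlapped with any earlier one. The fitted change was 1.66 (SE 0.12, adjusted p = 5.71e-10). Nmnat2, which makes NAD in axons, was at 0.73, 0.67, 0.52 and 0.75 FPKM at week 4, passed through means of 1.57 ± 0.43, 2.10 ± 0.41, 2.74 ± 0.37 and 4.27 ± 0.63, and was at 4.68, 3.55, 4.22 and 3.29 at week 24. The 4 mice of week 4 lay below all others (fitted change 1.60, SE 0.13, adjusted p = 1.42e-08). Bmpr1b, a type I receptor for bone morphogenetic proteins, was at 0.56, 0.6, 0.69 and 0.4 FPKM at week 4 and at 2.6, 2.17, 1.97 and 2.92 at week 24, with week means that rose at each step (fitted change 1.22, SE 0.12, adjusted p = 9.97e-07). These 3 genes were called in every alternative but that of the 6 week means, where their adjusted p was 0.164, 0.204 and 0.204. All 3 stayed under 5 FPKM in these whole islets.

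Pigr, which carries polymeric immunoglobulins across epithelia, was at 3.04, 2.07, 2.23 and 2.99 FPKM at week 4 and at 7.66, 7, 6.42 and 5.76 at week 24, and rose at each step (fitted change 1.11, SE 0.18, adjusted p = 0.00065). Cxcr4, the receptor of the chemokine CXCL12, averaged 1.31 ± 0.45 FPKM at week 4 and 1.99 ± 0.51 at week 16, and reached 2.33, 2.62, 5.31 and 5.16 at week 24 (fitted change 1.06, SE 0.18, adjusted p = 0.00126). Mice CD606 and CD608 stood high at week 24, and mice CD601 and CD605 lay within the range of week 20. The summed FPKM of B and plasma cell markers was 208.75 and 237.17 in CD606 and CD608, against 100.66 and 99.97 in CD601 and CD605. The part of such cells in the Cxcr4 values was not tested. Jak3, a kinase of cytokine receptors with the common gamma chain, was highest in the last 2 collections. It averaged 3.55 ± 0.81, 3.43 ± 0.55, 2.92 ± 0.41 and 3.38 ± 0.52 FPKM at weeks 4 to 16, and then 6.11 ± 0.98 and 7.79 ± 0.65 at weeks 20 and 24 (fitted change 1.00, SE 0.18, adjusted p = 0.00156, departure 1.18e-05). Every mouse of the last 2 weeks was above every earlier one. Gabra4, a subunit of the GABA receptor, rose from 0.79 ± 0.18 to 1.78 ± 0.45 FPKM (fitted change 0.76, SE 0.12, adjusted p = 0.000595), with its means of weeks 16 and 20 at 1.92 and 1.97. Without week 24 the adjusted p was 0.0595 for Pigr, 0.0693 for Cxcr4 and 0.171 for Jak3.

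**Figure D4:**
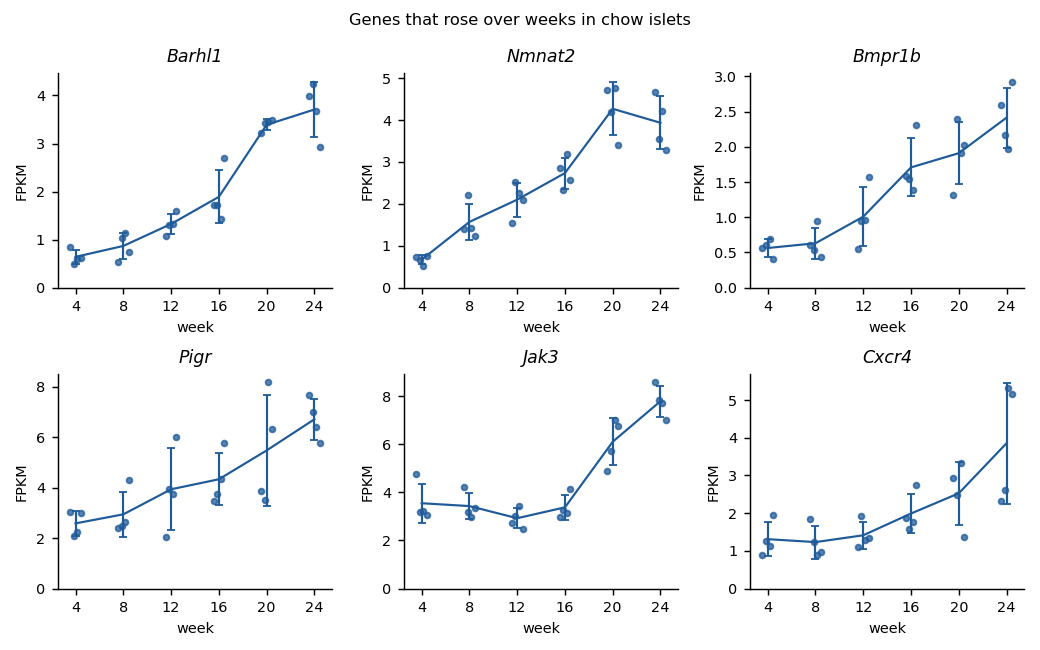
Barhl1, Nmnat2, Bmpr1b, Pigr, Jak3 and Cxcr4 in CD islets, in FPKM by week on diet. Points are single mice, lines join week means, and bars are SD (n = 4). Barhl1 climbed from a mean of 0.64 to 3.71 FPKM, and Jak3 stayed near 3 FPKM until week 16 and reached 7.79 at week 24.

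Smaller rises over the whole period were seen in genes chosen after their values were seen. Fut1, a fucosyltransferase, went from 0.93 ± 0.27 to 2.75 ± 0.83 FPKM, Adm2, a peptide of the calcitonin family, from 0.75 ± 0.17 to 2.37 ± 0.96, and Ache, acetylcholinesterase, from 5.0 ± 1.1 to 9.13 ± 0.60 (fitted changes 1.01, 0.96 and 0.87, adjusted p = 0.000301, 0.00028 and 0.000595). Arg1, arginase, fell from 14.0 ± 1.9 to 8.17 ± 1.14 FPKM (fitted change -0.76, adjusted p = 0.000216). All 4 were called again with weeks 4 and 12 left out (adjusted p = 0.00198, 0.00389, 0.0052 and 0.00795). By the naming rule, Rasd2 and Pcp4, a small GTPase and a calmodulin-binding peptide, rose by 1.13 and 1.2 (adjusted p = 0.000893 and 0.00414). Snhg11, a long noncoding RNA, rose by 2.19 (adjusted p = 0.00719), with means of 2.24, 8.25, 1.64, 13.2, 12.7 and 13.7 FPKM in order of week. Long transcripts were also low at weeks 4 and 12, and the part of this in the rise was not tested. Gm33887, Gm42102 and Gdf10, a growth factor of the TGF-beta family, fell by 1.62, 1.48 and 1.18 (adjusted p = 0.00661, 0.000644 and 0.017).

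B2m, the light chain of MHC class I, was at 69.42, 56.28, 56.5 and 63.08 FPKM at week 4 and at 96.52, 121.24, 120.58 and 129.08 at week 24. The mice of week 24 lay above all of week 4, while the means of weeks 8 to 20 ranged between 72.8 and 84.7 (fitted change 0.71, SE 0.14, adjusted p = 0.00451, without week 24 0.233). It was the 1 of 10 MHC class I genes that rose on the line, and H2-D1 and H2-Q4 were higher and Tap2 lower in week 24 against week 4. H2-Q8 also rose, by 1.29 (adjusted p = 0.0314), with means of 1.66, 3.33, 0.99, 5.0, 3.75 and 6.05 FPKM, and its reads cannot be told apart with certainty from those of its close relatives. Of 18 interferon response genes 3 rose (among them Ifit1 and Stat2, by 0.45 and 0.44, adjusted p = 0.0197 and 0.0462) and 0 fell (1 at an unadjusted p under 0.05). Over all genes 2.33% rose on the line and 1.94% fell. None of 11 macrophage markers (1 lower at an unadjusted p under 0.05) or 9 B and plasma cell markers (3 higher at an unadjusted p under 0.05) passed on the line by limma. The slope was positive for 6 of 11 macrophage markers (median 0.02) and for 9 of 9 B and plasma cell markers (median 0.84). The median over all genes was 0.06. Summed over all 13 and 12 genes of these lists that had values, tested or not, the levels were 103.6 ± 5.9 and 120.8 ± 8.6 FPKM at week 4. At week 24 they were 91.8 ± 9.1 and 161.6 ± 71.8.

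Of 6 tested genes of the Reg family, secreted proteins of the injured and exocrine pancreas, 1 rose on the line and 3 were higher in week 24 against week 4. Over all genes the shares were 2.33% and 18%. Reg2 was at 18.39, 7.85, 5.3 and 22.85 FPKM at week 4 and at 147.29, 336.27, 57.81 and 479.82 at week 24, with means of 5.38, 142.8, 191.0 and 34.9 in the weeks between. Its high weeks were 12, 16 and 24. The acinar sums were highest in these weeks too, but in another order, with the highest at week 12, where Reg2 was lower than at weeks 16 and 24. Its fitted change was 3.65 (SE 1.05, adjusted p = 0.0492), the call was lost in 30 of its 41 alternatives, among them the one without week 4 (adjusted p = 0.226), and Reg1 and Reg3d were also highest at weeks 12, 16 and 24 without a call on the line. Nupr1, a stress-induced nuclear protein of acinar and other cells, averaged 72.2 ± 21.8 FPKM at week 4, 139.3 ± 97.0 at week 12 and 204.9 ± 69.1 at week 24 (fitted change 1.25, SE 0.32, adjusted p = 0.0255, without week 24 0.274). The acinar markers themselves gave 0 calls on the line by limma (1 higher at an unadjusted p under 0.05), 13 of 28 were higher in week 24 against week 4 (18% of all genes), and 27 of 28 departed from a line (73.1% of all genes). The part of exocrine RNA in the Reg and Nupr1 values was not tested.

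A list of antioxidant and related genes gave calls in both directions. Of its 19 tested genes 1 rose and 2 fell on the line, against 2.33% and 1.94% of all genes. Gpx2, a glutathione peroxidase, was at 16.47, 17.38, 18.51 and 21.31 FPKM at week 4, at 7.9, 8.09, 8.81 and 8.61 at week 16 and at 7.77, 9.61, 12.55 and 7.01 at week 24. Week 16 had the narrowest range and the lowest mean, and weeks 4 and 24 did not overlap (fitted change -0.89, SE 0.15, adjusted p = 0.00117). Gpx3, a secreted relative, fell from 250.4 ± 12.2 to 143.6 ± 33.5 FPKM (fitted change -0.68, adjusted p = 0.00914), and Mt2, a metallothionein, rose by 1.25 (adjusted p = 0.0402). Without week 4 the adjusted p of Gpx2 was 0.0948.

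Several other groups gave no call on the line, where 2.33% of all genes rose and 1.94% fell. These were 12 heat shock genes (2 higher at an unadjusted p under 0.05), 22 of the unfolded protein response (1 higher and 4 lower), 20 of cholesterol synthesis (1 lower), 16 ion channels (1 higher and 2 lower) and 19 of exocytosis (5 lower). All 12 heat shock genes had a positive slope (median fitted change 0.44, against 0.06 over all genes). The medians of the other groups lay between -0.14 and 0.11. Of 16 integrated stress response genes, Vldlr rose by 0.64 and Ppp1r15a fell by 0.57 (adjusted p = 0.0097 and 0.00234). Of 19 clock genes Nr1d1, a repressor of the clock, fell by 1.04 (adjusted p = 0.0433), from 34.4 ± 6.6 to 13.5 ± 4.5 FPKM, and the hour of collection was not given in the sources used here. Of 13 age-linked islet genes, Gabra4 was the 1 that passed on the line.

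**Figure D5:**
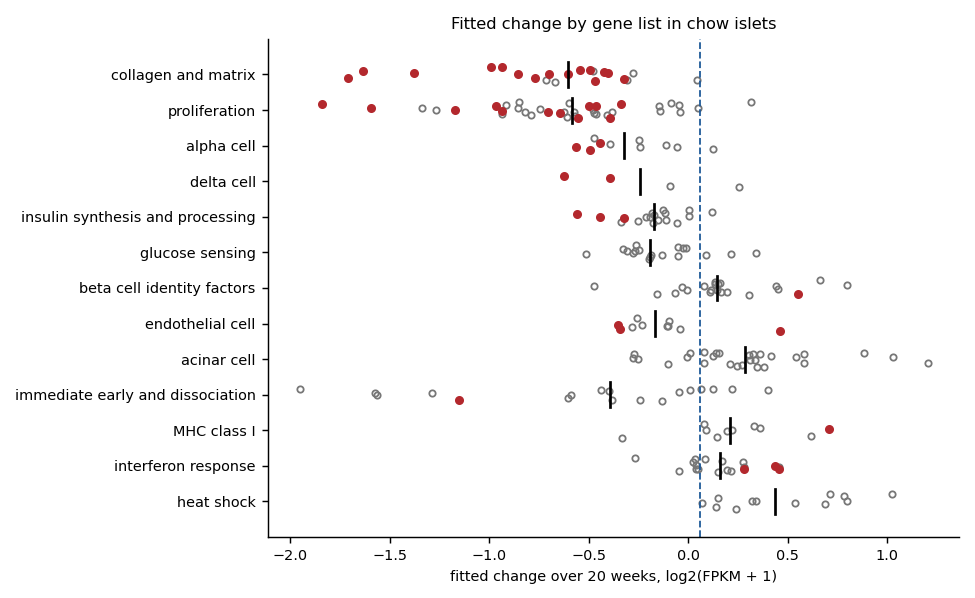
Fitted change over the 20 weeks on the log2(FPKM + 1) scale for each tested gene of 13 lists in CD islets. Filled red points passed at an adjusted p under 0.05, open points did not, black bars are list medians and the dashed line is the median of all genes (0.06). Collagen and matrix (median -0.61) and proliferation (median -0.59) lie to the left, with 15 and 12 falling genes.

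Many genes stood out in single weeks. Fos, an immediate early gene, was at 101.88, 97.95, 98.84 and 85.18 FPKM at week 4. No later mouse was above 49.89, and week 12 and 3 mice of week 16 were between 1.11 and 12.04. It departed from a line (adjusted p = 0.000257) and had no call on it (adjusted p = 0.304). Fosb and Jun went the same way, from 11.5 ± 2.4 and 48.5 ± 12.4 FPKM at week 4 to 0.42 ± 0.45 and 10.6 ± 5.7 at week 24. Of 20 immediate early genes 9 were lower and 1 higher in week 24 against week 4, as 14.6% and 18% of all genes were. On the line 1 of the 20 was called, and it fell, as 1.94% of all genes did. Dusp1, a phosphatase of the same response, fell on the line by 1.15 (adjusted p = 0.0272).

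Prss3 and Clps, a trypsinogen and colipase of acinar cells, averaged 1353 ± 466 and 3474 ± 1625 FPKM at week 12 and at most 67.2 and 253.5 in the mean of any other week. Cela3a, an elastase, peaked at week 16 (134.0 ± 45 FPKM) and was at 14.6 ± 6.6 at week 12, so that acinar genes did not share a single order of weeks. Alb and Mup22, genes of the liver, were at 4.92 ± 1.73 and 1.73 ± 0.42 FPKM at week 12 and 9.57 ± 3.43 and 6.58 ± 1.88 at week 16, and under 0.6 FPKM in the means of all other weeks. Pcsk4 and Lmtk3, named by the rule for the step to week 12, were at 15.5 ± 3.1 and 16.0 ± 2.2 FPKM at week 8 and at 2.38 ± 0.66 and 2.52 ± 0.36 at week 12, and 6430590A07Rik went from 7.89 ± 1.22 to 0.79 ± 0.27 and back to 8.67 ± 0.96 at week 16. Each of these 3 was also low at week 4. H3c15, a histone gene, averaged 1.2 ± 1.6 FPKM at week 16 and 17.6 ± 8.3 at week 20. H2-Aa, an MHC class II chain, averaged 37.7 ± 4.4 FPKM at week 12 and 1.13 ± 1.33 at week 16, where Cd74, its invariant chain, was at 98.8 and 97.9. Nutf2-ps2, listed at 2.68 to 5.56 FPKM in week 4, was listed at 0 in every mouse of weeks 8, 16, 20 and 24. Nutf2-ps2, Gm4184 and Rpl37rt are pseudogene or retrocopy entries, Gabarap, which swung from 46.7 ± 5.0 FPKM at week 12 to 1.72 ± 1.39 at week 16, and the trypsin and elastase genes have close copies, and the share of reads each receives is uncertain.

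HFD islets of the same weeks gave a further set of animals. There the line was called for 3500 genes upwards (29.1% of 12014) and 503 downwards (4.19%). Of 11900 genes tested in both diets, 497 were called in CD and 3938 in HFD, and 373 in both in the same direction, which is 75.1% of the CD calls and 9.47% of the HFD calls, and 5 in opposite directions. The weeks of the 2 diets share the length pattern of weeks 4 and 12 described above, and its part in the shared calls was not tested. The slope itself differed between diets for 183 of 12378 genes (1.48%; 0.574% upwards and 0.905% downwards), among them 35 of the 520. With median ratio scaling more of them differed upwards than downwards, with 98 against 79.

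Of 31 genes examined singly, 5 had slopes that differed, and among these 5 the hormones of non-beta cells differed most. Gcg fell by 0.56 in CD and by 3.31 in HFD, where its mean went from 13180 ± 1069 to 1358 ± 468 FPKM, and the slopes differed by 2.75 (adjusted p = 1.48e-08). Sst fell by 0.62 and 3.10 (difference 2.48, adjusted p = 2.92e-06), and Ppy by 0.93 and 3.06 (difference 2.13, adjusted p = 0.000121). In all, 6 of 10 alpha cell, 4 of 4 delta cell and 2 of 3 PP and epsilon cell markers had slopes that differed. Pcsk1 fell in both diets, by 0.56 and 0.95 (difference 0.39, adjusted p = 0.239), and Ins2 fell in HFD by 0.35 (adjusted p = 0.0126) with a difference of 0.18 (adjusted p = 0.726).

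Cxcr4, Gabra4, Barhl1, Nmnat2 and Bmpr1b, which rose in CD, also rose in HFD. Cxcr4 rose by 1.06 in CD and 2.33 in HFD, where it reached 10.3 ± 2.9 FPKM at week 24 (difference -1.28, adjusted p = 0.00108), and Gabra4 by 0.76 and 1.67 (difference -0.91, adjusted p = 0.0243). Barhl1 rose by 1.66 and 2.35 (difference -0.69, adjusted p = 0.0532), Nmnat2 by 1.60 and 1.53 (difference 0.07, adjusted p = 0.935), and Bmpr1b by 1.22 and 1.08 (difference 0.14, adjusted p = 0.871). For matrix genes 0 of 21 slopes differed by limma, although 2 of 19 fell in HFD against 15 of 21 in CD. The summed matrix level in HFD was 168.7 ± 28.0 FPKM at week 4 and 148.7 ± 30.3 at week 24. Sparc fell by 0.99 in CD and gave -0.32 in HFD (difference -0.67, adjusted p = 0.0641). Of the proliferation genes 9 of 24 tested fell in HFD, and 0 slopes differed. Pbk in HFD was at 1.14 ± 0.59 FPKM at week 4, when CD was at 6.41 ± 5.51, and fell by 1.25 (adjusted p = 0.000636).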

How the data were processed

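RNA of whole islets was sequenced after poly(A) selection and random-hexamer priming on a BGISEQ-500. Per the labels and the submitters' processing notes, the authors aligned reads to GRCm38.p5 with HISAT2 2.0.4 and Bowtie2 2.2.5 and estimated expression with RSEM 1.1.12, and they deposited 1 table of FPKM per gene and library. Read counts are not part of that table: the depth behind a value is unknown and no counting interval can be given. Its columns of the authors' own comparisons (fold changes, p-values) and their module and cluster assignments were not used. Of 21990 genes, 20155 had values, and 12178 reached 1 FPKM in at least 4 of the 24 libraries and were tested.

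A count model was foreseen, but as the values are FPKM, limma 3.58.1 (R 4.3.3) was fitted to log2(FPKM + 1) with trended, robust variances and Benjamini-Hochberg adjustment over all tested genes. One fit held the week as a number, one held the 6 weeks as groups (for week 24 against week 4, neighbouring weeks and departure from a line), and one held both diets (difference of slopes). On simulated data of 12178 genes with 200 changed by 1 on the log2 scale over the weeks, 98% were called on the line with 11 unchanged genes. The simulated mice varied independently by the spread within a week, and no week was shifted as a whole. In the data 73.1% of genes departed from a line, so these rates do not carry over to them. Library measures were compared with exact two-sided permutation tests (scipy 1.17.1).

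Genes named were the 10 called genes with the largest rise and fall on the line, the 10 departing genes with the widest range of week means, the 3 largest in each step, and members of gene lists. The lists and members were chosen with earlier results of these data known. Promoters came from RefSeq. Alternatives covered the pseudocount, the filter, scaling, variance options, weeks and mice left out. Lists counted in the text are described by counts and medians, without a test of the list. Results of a few genes are not reported here.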

Additional observations from a re-analysis of the deposited data

Results flagged for a closer look

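For 31 genes and the library measures, a mouse that lay far from the other 3 of its week was looked for by Dixon's test, which flags about 1 in 20 groups by chance, and 9 of 210 groups were marked. The lowest mouse stood apart for Col1a1 at week 16 (0.38 FPKM), Pcsk1 at week 4 (159.7 FPKM) and Esrrg at week 24 (2.97 FPKM). The highest mouse stood apart for Stmn1 at week 20 (14.44 FPKM), Pigr at week 8 (4.29 FPKM), Jak3 at week 4 (4.75 FPKM), Reg2 at week 12 (350.1 FPKM) and Fos at week 16 (23.37 FPKM). The difference between long and short transcripts was highest in 1 mouse of week 20 (0.1124 on the log2 scale).

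The slope over weeks differed between CD and HFD islets for 5 of these 31 genes by limma, with adjusted p-values given above. The fitted change in CD minus that in HFD was 2.749 for Gcg, 2.481 for Sst, 2.125 for Ppy, -1.278 for Cxcr4 and -0.9063 for Gabra4.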

How the results depend on the processing

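Counts of genes on the line moved most. Among genes with a mean of at least 5 FPKM 54 rose and 93 fell (week 24 against week 4, 1220 higher), with median ratio scaling 476 and 797, with Ins1 and Ins2 left out 72 and 39, with acinar markers left out 1441 and 109 (week 24 against week 4, 3295 and 522), and with an acinar score as covariate 1964 and 560. With the 6 week means 0 and 0 passed by limma (412 of 12178 at an unadjusted p under 0.05, fewer than chance alone would give). Without week 4 there were 88 and 51, without week 8 1802 and 625, without week 12 861 and about 4.1e+02, without week 16 171 rising, without week 20 164 and 566, and without week 24 70 and 25. Median ratio scaling gave 2350 lower from week 4 to 8, 3498 higher from week 8 to 12, 3862 lower from week 12 to 16, 2878 lower from week 16 to 20, and 493 higher and 496 lower from week 20 to 24. Slopes differed between diets upwards for 19 genes and downwards for 38 without week 4. The cause of these shifts was not tested. Alternatives chosen after seeing the data gave 173 rising genes without weeks 4 and 12, 25 and 60 genes with differing slopes without these weeks, and 366 higher and 1014 lower for week 24 against week 8.

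Leaving out 1 mouse at a time gave 136 to 442 rising and 124 to 289 falling genes, 1576 to 2472 higher and 1311 to 2022 lower in week 24 against week 4, and 8502 to 9163 departing from a line. Steps gave 2071 to 3007 and 818 to 1381 (week 8), 1062 to 2138 and 4030 to 4768 (week 12), 3838 to 4438 and 1689 to 2751 (week 16), 3206 to 4066 and 831 to 1354 (week 20), and 77 to 165 and 1215 to 3108 (week 24, lowest without mice CD501 and CD605, with 1463 lower without mouse CD501, 1648 without mouse CD505 and 1650 without mouse CD608). The differences in library measures ranged from -3.909 to -0.8388 percentage points of insulin, from 12950 to 30370 FPKM of acinar markers and from 5.667 to 187.0 genes at 1 FPKM.

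Signs turned for Ins1, Ins2 and Fos, none of them called on the line. The line of Ins1 gave 0.0064 with acinar markers left out, 0.13 without week 4, 0.051 length corrected and 0.065 without weeks 4 and 12. Its week 24 against week 4 gave 0.036 with acinar markers left out, 0.091 length corrected and 0.093 against week 8. Ins2 gave 0.050 on the line without week 4, and in week 24 against week 4 0.021 length corrected and 0.024 against week 8. Fos gave 0.95 without week 4 and 0.24 without weeks 4 and 12. Of 1255 alternatives of the line for the genes examined singly, 1119 were counted as the same, 124 lost the call, 5 gained it and 7 turned. An uncalled gene whose sign changed by less than its SE was counted as the same. In 744 of them 1 mouse was left out, and 707 of these were the same. With the 6 week means 27 of 31 lost the call, and without week 4 17 of 31 lost it and 3 turned. A count test was not run because the table holds FPKM. No paired analysis was possible because mice of different weeks are different animals. The unknown depth limits what can be said of genes near 1 FPKM.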
